A study of Mus musculus with 6 samples.

Results

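The cell-cycle cyclins examined here are the 8 genes *Ccnd1*, *Ccnd2*, *Ccnd3*, *Ccne1*, *Ccne2*, *Ccna2*, *Ccnb1* and *Ccnb2*. They were taken by gene symbol from a table of 20409 features, matched through their Ensembl identifiers, and all 8 were present. The table holds bulk RNA-seq counts of duodenal villus epithelium from 3 wild-type and 3 double mutant mice, with 2 females and 1 male in each group. The double mutants (label genotype: Smad4 knockout and beta-catenin GOF) were *Smad4* fl/fl, *Ctnnb* exon3 fl/wt mice carrying Villin-CreERT2, on a background enriched for C57BL6. Tamoxifen at 0.05 g/kg, given into the peritoneum on 4 consecutive days, drove recombination across the intestinal epithelium, which deletes *Smad4* and removes exon 3 of 1 β-catenin allele. Villi were taken 7 days after induction. Wild-type mice were littermates without tamoxifen, so the effects of the drug and of the mutation cannot be told apart, and no ages are given beyond age matching between the groups. Among bulk samples of this kind, fewer cells of a type and less RNA per cell cannot be told apart either.

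Cyclins are the regulatory subunits of the cyclin-dependent kinases (CDKs), and their stepwise synthesis and destruction order the cell cycle. D-type cyclins join CDK4 and CDK6 in G1 and start the phosphorylation of the retinoblastoma protein, E-type cyclins join CDK2 at the entry to S phase, cyclin A2 joins CDK2 and then CDK1 from S phase into G2, and B-type cyclins join CDK1 for mitosis. In the normal intestine, dividing cells are kept to the crypts, and the villus is covered by cells that have left the cycle.

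Between 19678507 and 26337318 reads were counted per mouse. *Smad4*, the deleted gene, had 120, 180 and 144 CPM (counts scaled to library size and by edgeR's TMM factors) in the wild-type mice and 26.1, 36.8 and 32.1 CPM in the double mutants, which matches the labels. Enterocyte markers took 47916 to 56028 CPM in wild-type and 28584 to 31314 CPM in double mutant villi, with 7 of 10 lower and 1 higher in the double mutant (6 and 1 without wild-type mouse 1). Fibroblast and smooth muscle markers summed to at most 6.76 CPM and endothelial markers to at most 1.09 CPM in any mouse. Wild-type mouse 1, the male, stood apart from the other wild-type mice, with 125 CPM of 8 goblet markers against 11616 and 11039 CPM and 7.91 CPM of 7 Paneth markers against 954 and 1592 CPM. In the double mutants these lists summed to 4669 to 5064 CPM and 390 to 976 CPM. Of the goblet markers 1 was higher and 0 lower, and 1 higher and 5 lower without wild-type mouse 1, and of the Paneth markers 0 passed, or 2 higher and 2 lower without that mouse. The part of these secretory cells in the cyclin results was not tested. In wild-type mouse 1 the crypt stem cell markers summed to 81.4 CPM against 183 and 191 CPM, and the G2/M markers to 21.7 CPM against 67.7 and 67.1 CPM. For 7 of the 8 cyclins it had the lowest wild-type value.

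Of the 8 cyclins, 6 were higher and 1 was lower in double mutant villi (edgeR's quasi-likelihood test, Benjamini-Hochberg adjusted p under 0.05 over 13346 tested genes). Among all tested genes 36.8% passed this test, 19.7% higher and 17.0% lower. The median log2 fold change (log2FC, double mutant against wild-type) was 2.02 over the 8 cyclins and 0.02 over all tested genes. All 8 cyclins passed the filter on low counts. For each of the 8, the 3 double mutant mice lay on one side of the 3 wild-type mice, which was the case for 52.4% of the tested genes. When libraries were scaled by total count alone, the log2FCs of all genes shifted by a median of 0.19 and 72.4% of the passing genes were higher, against 53.7% under TMM, but the direction and the call of every cyclin were kept. Calls and directions were also kept without wild-type mouse 1, where the log2FC was 2.20 for *Ccnd1*, 2.12 for *Ccnd2*, 0.20 for *Ccnd3*, 1.55 for *Ccne1*, -1.49 for *Ccne2*, 1.67 for *Ccna2*, 1.99 for *Ccnb1* and 1.63 for *Ccnb2*. The plot of cyclin levels by mouse shows the values behind these counts.

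**Figure D1:**
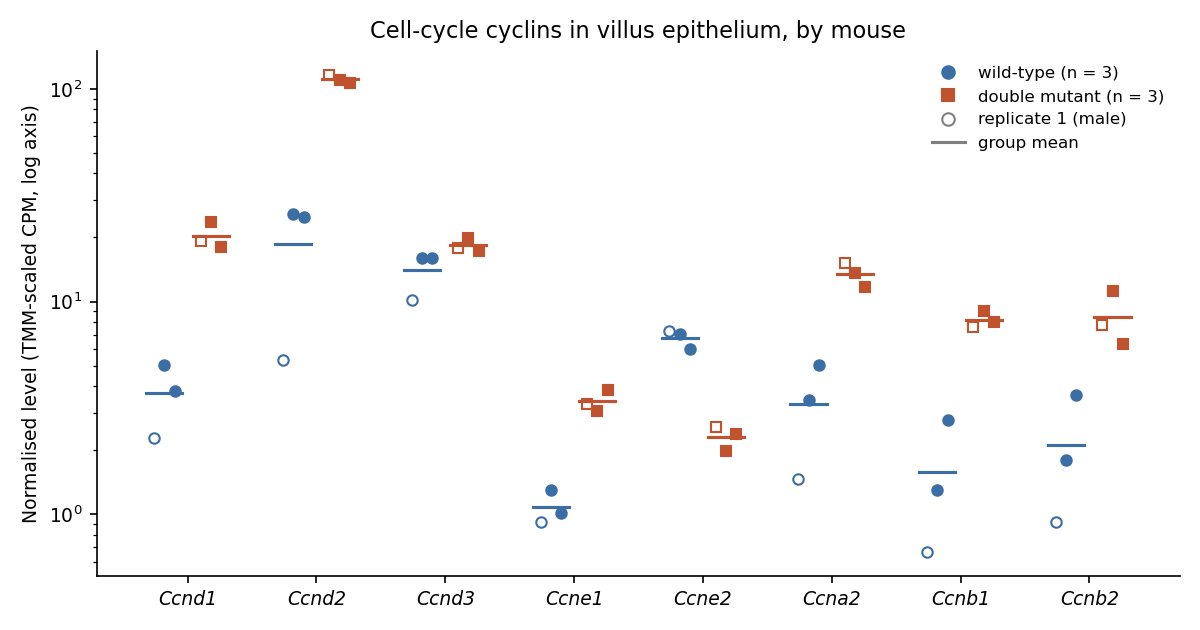
Normalised level of each cyclin (TMM-scaled CPM, log axis) in the 3 wild-type mice (circles) and the 3 double mutant mice (squares), with replicate 1, the male, as an open symbol and the group mean as a line. The double mutants lie above every wild-type mouse for 7 genes and below for *Ccne2*, and the open wild-type circle of *Ccnd2*, at 5.29 CPM, lies far from the other wild-type values of 25.9 and 25.0 CPM.

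The D-type cyclins, which couple outside signals to the cycle, did not move alike. *Ccnd1* (ENSMUSG00000070348; mm9 chromosome 7, 152115836 to 152125774, minus strand) encodes cyclin D1, a well-known target of β-catenin signalling in intestinal tumours. It had 2.29, 5.06 and 3.79 CPM in wild-type mice 1 to 3 and 19.3, 23.6 and 18.1 CPM in double mutant mice 1 to 3. The lowest double mutant value was thus above the highest wild-type value by a wide margin. The log2FC was 2.46 (SE 0.279, edgeR adjusted p = 0.000465), a 5.50-fold rise, and 1.60% of the tested genes had a larger one. Of its exon bases 21.3% are shared with *Oraov1* on the opposite strand, which had 22.1 ± 4.12 and 17.7 ± 1.78 CPM (SD over 3 mice; adjusted p = 0.171).

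*Ccnd2* (ENSMUSG00000000184; chromosome 6, 127075797 to 127101066, minus strand), which encodes cyclin D2, had the highest level of the 8 in the double mutants. Its wild-type values were 5.29, 25.9 and 25.0 CPM and its double mutant values 117, 110 and 106 CPM. The double mutants were close to each other, whereas wild-type mouse 1 had far less than the other wild-type mice. *Ccnd2* rose by a log2FC of 2.57 (SE 0.592, edgeR adjusted p = 0.0220). Without wild-type mouse 1 the change was 2.12 with an adjusted p of 5.51e-06. The call was lost when double mutant mouse 1, 2 or 3 was left out (adjusted p = 0.0590, 0.0805 and 0.0576) and when no filter on low counts was used (adjusted p = 0.0650), while the log2FC in these fits stayed between 2.54 and 2.61.

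In the males the level went from 5.29 to 117 CPM, a log2 ratio of 4.46, and in the females from a mean of 25.4 to a mean of 108 CPM, a log2 ratio of 2.08. A genotype by sex term, added because wild-type mouse 1 stood apart, was 2.38 on the log2 scale. Each group holds 1 male, so its spread comes from the females alone and its p-value is no test of males against females. The term passed for 2.64% of all tested genes, for 7 of 8 goblet, 3 of 7 Paneth and 3 of 8 crypt stem cell markers, for 4 of 12 G2/M and 2 of 12 S phase markers, for 2 of 7 genes upstream of *Ccnd1*, 2 of 9 T cell and 1 of 10 enterocyte markers, and for no gene of the other lists. Sex and the single wild-type male cannot be told apart.

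*Ccnd3* (ENSMUSG00000034165; chromosome 17, 47642000 to 47736632, plus strand) encodes cyclin D3, which joins the same kinases. It had 10.2, 16.0 and 16.0 CPM in wild-type and 17.8, 19.9 and 17.3 CPM in double mutant mice. The groups did not overlap, yet wild-type mice 2 and 3 lay just under the double mutants, and the log2FC of 0.39 did not pass the test (95% interval -0.06 to 0.83, adjusted p = 0.155). Of its exon bases, 353 (15.7%) are shared with *Bysl* on the opposite strand, which rose from 4.30 ± 0.524 to 9.06 ± 1.91 CPM (SD over 3 mice; adjusted p = 0.00645). Since the strand setting of the counting is not given in the sources used here, reads of the shared bases cannot be assigned.

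The E-type cyclins went in opposite directions. *Ccne1* (ENSMUSG00000002068; chromosome 7, 38883003 to 38892553, minus strand) encodes cyclin E1, which activates CDK2 at the start of DNA replication. It had 0.916, 1.31 and 1.01 CPM in wild-type and 3.29, 3.06 and 3.84 CPM in double mutant mice, so that each double mutant had more than 2 times the level of any wild-type mouse. The log2FC was 1.66 (SE 0.304, edgeR adjusted p = 0.00376).

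*Ccne2* (ENSMUSG00000028212; chromosome 4, 11118498 to 11131926, plus strand) encodes cyclin E2, the close relative with the same partner. Its values were 7.29, 7.02 and 6.01 CPM in wild-type and 2.58, 1.99 and 2.37 CPM in double mutant villi. Both groups were tight, and every double mutant lay well below every wild-type mouse. *Ccne2* fell by 1.55 on the log2 scale (SE 0.227, edgeR adjusted p = 0.00139), the only fall among the 8 cyclins, and 3.99% of the tested genes had a smaller log2 fold change. Of its exon bases 17.4% are shared with *Ints8* on the opposite strand, which had 18.1 ± 2.46 and 19.0 ± 2.00 CPM (SD over 3 mice; adjusted p = 0.757). In wild-type mouse 1 the level of *Ccne2* was close to that in the other wild-type mice, and without this mouse the log2FC was -1.49 (adjusted p = 0.00131).

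Cyclin A2 and the B-type cyclins, which drive S phase, G2 and mitosis, rose together. *Ccna2* (ENSMUSG00000027715; chromosome 3, 36463788 to 36471072, minus strand) had 1.46, 3.43 and 5.05 CPM in wild-type and 15.2, 13.7 and 11.7 CPM in double mutant mice, a log2FC of 2.04 (SE 0.388, edgeR adjusted p = 0.00498). The wild-type values spread more than 3-fold, and even the highest was far below the lowest double mutant value. Of the exon bases of *Ccna2* 14.6% are shared with *Exosc9* on the opposite strand, which had 15.0 ± 0.981 and 21.4 ± 4.66 CPM (SD over 3 mice; adjusted p = 0.0518). *Ccnb1* (ENSMUSG00000041431; chromosome 13, 101548605 to 101556525, minus strand) encodes cyclin B1, the main mitotic partner of CDK1. It had 0.666, 1.31 and 2.78 CPM in wild-type and 7.56, 8.998 and 8.02 CPM in double mutant villi. Its log2FC was 2.38 (SE 0.445, edgeR adjusted p = 0.00434), and 3.06 without wild-type mouse 3, which had the highest wild-type value.

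*Ccnb2* (ENSMUSG00000032218; chromosome 9, 70255496 to 70269361, minus strand) encodes cyclin B2, another mitotic partner of CDK1. It had 0.916, 1.80 and 3.64 CPM in wild-type and 7.79, 11.2 and 6.31 CPM in double mutant mice. Double mutant mouse 2 was the highest, and the groups were apart. The log2FC was 2.00 (SE 0.467, edgeR adjusted p = 0.0119). It was 2.65 without wild-type mouse 3, and without wild-type mouse 2 it was 1.90 and the call was lost (adjusted p = 0.0507).

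**Figure D2:**
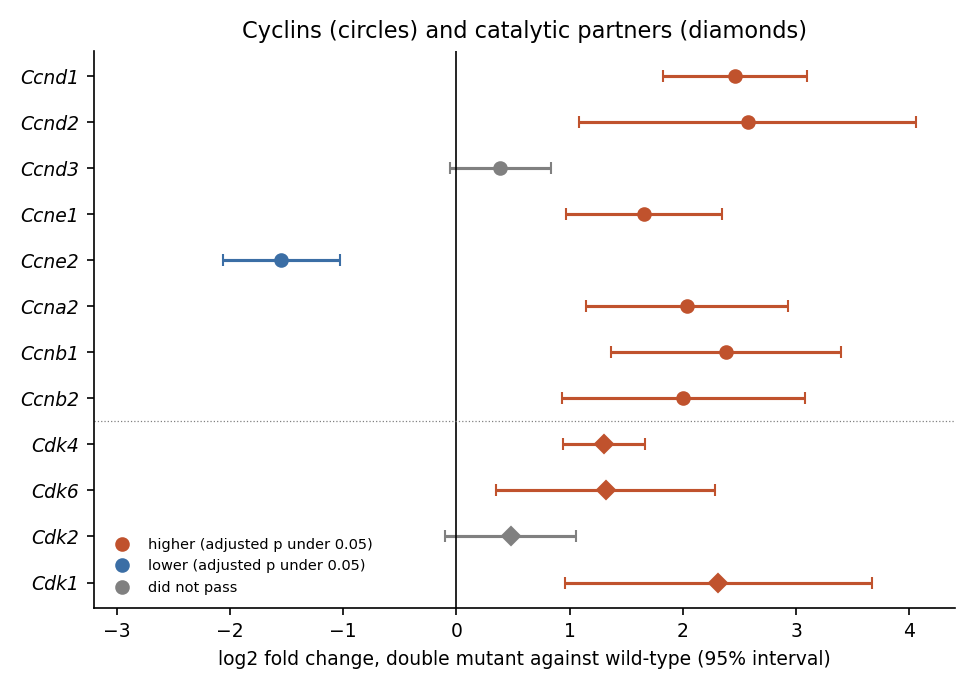
log2 fold change of the 8 cyclins (circles) and of 4 catalytic partners (diamonds), double mutant against wild-type, with 95% intervals from edgeR's quasi-likelihood fit. Only *Ccne2* lies below 0, at -1.55, and the intervals of *Ccnd3* (-0.06 to 0.83) and *Cdk2* include 0.

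The windows around the transcript starts of *Ccnb1* and *Ccnb2* are shown because these genes rose together and because mitotic cyclin promoters are known for CCAAT boxes, the letters bound by NF-Y, and for the cell cycle homology element TTTGAA. RefSeq windows of 250 bases before to 50 bases after the start (build GRCm38.p6) were at hand for 4 of the 8 cyclins, *Ccnb1*, *Ccnb2*, *Ccnd3* and *Ccne1*. The windows lie at chr13:100786437-100786736 and chr9:70421505-70421804, both on the minus strand and printed 5′ to 3′. Capitals mark CCAAT and TTTGAA.
Ccnb1: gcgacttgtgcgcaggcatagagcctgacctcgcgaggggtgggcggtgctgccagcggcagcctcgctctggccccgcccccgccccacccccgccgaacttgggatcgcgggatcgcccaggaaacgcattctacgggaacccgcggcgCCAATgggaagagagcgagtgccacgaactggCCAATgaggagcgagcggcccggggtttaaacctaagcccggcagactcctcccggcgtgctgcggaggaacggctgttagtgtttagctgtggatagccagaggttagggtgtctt
Ccnb2: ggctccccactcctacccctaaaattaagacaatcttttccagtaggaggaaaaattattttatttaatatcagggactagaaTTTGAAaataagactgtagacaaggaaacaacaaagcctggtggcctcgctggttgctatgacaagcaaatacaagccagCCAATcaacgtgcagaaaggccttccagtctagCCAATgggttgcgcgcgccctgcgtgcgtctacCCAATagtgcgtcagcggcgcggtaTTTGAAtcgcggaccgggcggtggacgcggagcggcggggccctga

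*Ccnb1* held 2 CCAAT matches, which start 99 and 67 bases before the transcript start and thus 32 bases apart. *Ccnb2* held 3, which start 87, 54 and 21 bases before the transcript start, so that the starts of neighbours are 33 bases apart. Of all 32851 windows of this length, searched on both strands, 37.4% held at least 1 CCAAT, 11.7% at least 2 and 3.37% at least 3. TTTGAA occurred 2 times in the *Ccnb2* window, once from base 5 to base 10 after the start and once 167 bases before it, and in 17.9% of all windows. The *Ccnb1* window held no TTTGAA. The E2F-like letters TTTNNCGC, found in 5.17% of all windows, had no match in the windows of these 4 genes. No motif overlapped another. The *Ccne1* window held no match to CCAAT or TTTGAA, and 1 of the 2 *Ccnd3* windows held a single CCAAT. A match is a description of the letters and was not tested for binding.

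Levels of different genes were compared as CPM per kilobase of annotated exon. In wild-type villi the order was *Ccnd3* (6.24 ± 1.497 CPM per kilobase; SD, n = 3 mice), *Ccnd2* (3.28 ± 2.04), *Ccne2* (1.94 ± 0.192), *Ccnb2* (1.37 ± 0.902), *Ccnd1* (0.968 ± 0.361), *Ccna2* (0.944 ± 0.513), *Ccne1* (0.405 ± 0.0763) and *Ccnb1* (0.376 ± 0.257), and the ranges of each pair of neighbours in this order overlapped. In double mutant villi *Ccnd2* came first (19.4 ± 0.948 CPM per kilobase), followed by *Ccnd3* (8.15 ± 0.615), *Ccnb2* (5.48 ± 1.63), *Ccnd1* (5.30 ± 0.748), *Ccna2* (3.85 ± 0.499), *Ccnb1* (1.94 ± 0.174), *Ccne1* (1.28 ± 0.152) and *Ccne2* (0.663 ± 0.0852). There the only neighbours with overlapping ranges were *Ccnb2* and *Ccnd1*. *Ccne2* went from place 3 to place 8 and *Ccnd2* from place 2 to place 1.

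Shares within a class do not depend on how libraries are scaled against each other. *Ccnd3* made up 74.7%, 54.8% and 56.9% of the D-type level per kilobase in wild-type mice 1 to 3 and 23.7%, 25.8% and 24.8% in double mutant mice 1 to 3. The share of *Ccnd2* went from 15.4%, 35.0% and 35.2% to 61.2%, 56.2% and 60.0%, a mean difference of 30.6 percentage points (24.0 without wild-type mouse 1), and that of *Ccnd1* from 9.90%, 10.2% and 7.94% to 15.1%, 17.9% and 15.2%. Per kilobase of exon, *Ccnd3* was thus ahead in each wild-type mouse and *Ccnd2* in each double mutant. By raw counts *Ccnd2* was ahead of *Ccnd3* in wild-type mouse 2 (476 against 295) and mouse 3 (494 against 316) too, but not in mouse 1 (127 against 244), so the order in wild-type villi depends on the exon length used. *Ccne1* made up 14.2%, 19.6% and 18.1% of the E-type level in wild-type and 62.6%, 66.8% and 68.0% in double mutant mice, a mean difference of 48.5 percentage points. For *Ccnb1* within the B-type level the difference was 5.57 percentage points (3.14 without double mutant mouse 3), with 20.996%, 20.996% and 21.8% in wild-type and 26.2%, 22.7% and 31.7% in double mutant mice. None of these 5 shares overlapped between the groups (exact permutation test, two-sided p = 0.1 for each, the smallest that 3 mice against 3 allow, and 0.127 after Benjamini-Hochberg adjustment over the 14 shares and ratios compared). With raw counts in place of counts per exon length, the *Ccnd1* share did overlap (difference 2.87 percentage points against 6.76, exact permutation test, two-sided p = 0.3).

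**Figure D3:**
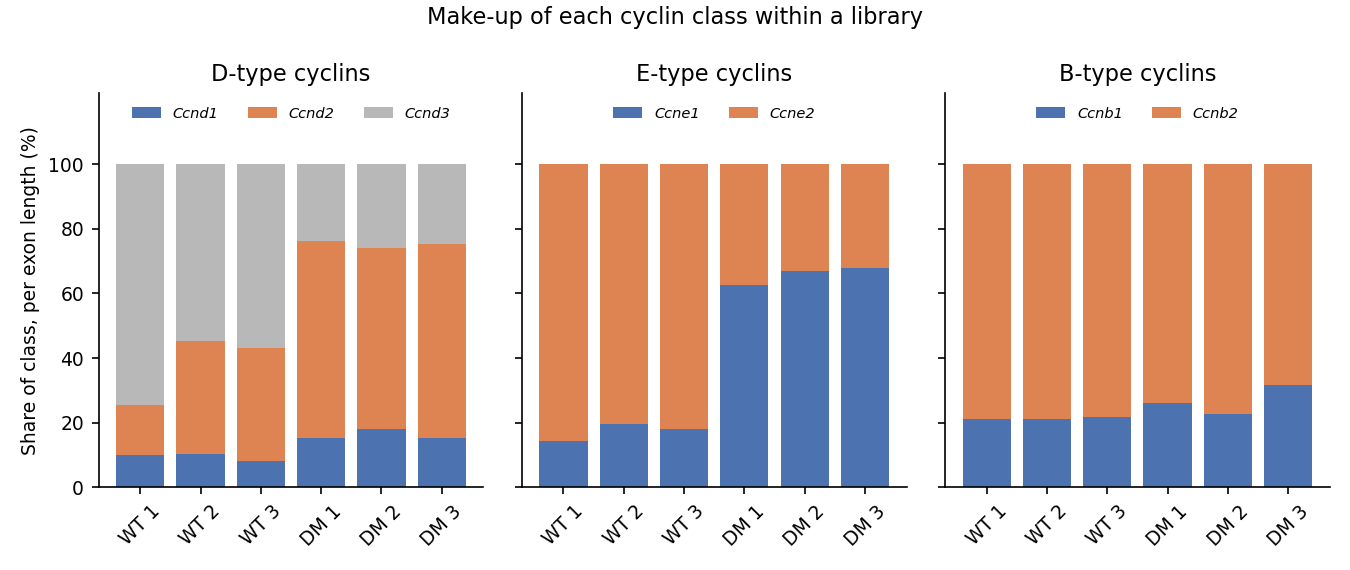
Share of each gene (%, level per kilobase of exon) in the D-type, E-type and B-type sums of each wild-type (WT) and double mutant (DM) mouse, as stacked bars that add to 100%. *Ccnd3* fills 54.8% to 74.7% of the D-type bars in wild-type and 23.7% to 25.8% in double mutant mice, and *Ccne1* goes from at most 19.6% to at least 62.6% of the E-type bars.

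Of the 4 main catalytic partners, 3 rose. *Cdk4*, the partner of the D-type cyclins, went from 18.3 ± 1.61 to 45.1 ± 8.52 CPM (SD over 3 mice; log2FC 1.30, adjusted p = 0.000629), and *Cdk6*, their other partner, from 1.03 ± 0.19996 to 2.58 ± 1.26 CPM (log2FC 1.32, adjusted p = 0.0387). *Cdk1*, the mitotic kinase, went from 1.70 ± 1.28 to 8.36 ± 1.43 CPM (log2FC 2.31, adjusted p = 0.0181). *Cdk2*, the partner of cyclins E and A, had 6.63 ± 1.95 and 9.24 ± 1.77 CPM, a difference that did not pass (log2FC 0.48, adjusted p = 0.172). Within each library, the log2 ratio of *Ccnd1* to *Cdk4* was higher in the double mutants by 1.23 (0.93 without wild-type mouse 1), that of *Ccnd2* to *Cdk4* by 1.59 (0.85 without that mouse), that of *Ccne1* to *Cdk2* by 1.17 and that of *Ccna2* to *Cdk2* by 1.69 (1.35 without it), while *Ccnd3* to *Cdk4* fell by 0.88 and *Ccne2* to *Cdk2* by 2.05. For these 6 ratios all double mutants lay on one side of the wild-type mice (exact permutation test, two-sided p = 0.1 for each, the smallest possible). After Benjamini-Hochberg adjustment over the 14 shares and ratios compared, this p was 0.127. The levels of 52.4% of all tested genes separated the groups in the same way. The ratios reuse the cyclin values above and share *Cdk4* or *Cdk2*, so they are not separate results. The ratios of *Ccnb1* and *Ccnb2* to *Cdk1* overlapped between the groups, with differences of -0.12 (exact permutation test, two-sided p = 0.9) and -0.55 (p = 0.2 by the same test). Without wild-type mouse 1 these were 0.25 and -0.17. The groups also overlapped for the ratio of the D-type sum to the sum of *Ccna2*, *Ccnb1* and *Ccnb2* (difference -0.53, exact permutation test, two-sided p = 0.3). This difference was -0.135 with raw counts (exact permutation test, two-sided p = 0.7) and -0.83 without wild-type mouse 3.

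Genes that act around the cyclins were taken from 11 lists, drawn up with earlier results of these data known. Of 119 tested genes in these lists, 46 were higher and 19 lower (with 19.7% and 17.0% among all tested genes), and without wild-type mouse 1 the counts were 50 and 17. Among the CDKs and the CDK-activating kinase, 4 of 7 were higher and 0 lower (5 and 0 without wild-type mouse 1). The 15 tested cyclins outside the 8 gave 2 higher and 5 lower (3 and 4 without that mouse). *Ccnf*, whose product is the substrate receptor of an SCF ubiquitin ligase in G2, rose from 0.888 ± 0.599 to 4.80 ± 0.875 CPM (SD over 3 mice; log2FC 2.45, adjusted p = 0.00522), and *Ccnj* fell from 17.5 ± 1.18 to 3.06 ± 0.864 CPM (log2FC -2.51, adjusted p = 0.000205).

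Of 6 tested CDK inhibitors, 4 were lower and 0 higher, and the largest fall was that of *Cdkn1a*, which encodes p21, from 335 ± 43.8 to 88.3 ± 13.9 CPM (SD over 3 mice; log2FC -1.92, adjusted p = 0.000114). In the list of pocket proteins and E2F factors, which the cyclin D kinases and their targets control, 7 of 13 were higher and 2 lower (6 and 1 without wild-type mouse 1). *E2f7*, a repressor among the E2Fs, had the largest rise (log2FC 2.30, adjusted p = 0.00522), and *Rb1*, the retinoblastoma gene, the largest fall (log2FC -0.81, adjusted p = 0.00625). Of 10 genes for the MuvB complex, B-MYB, FOXM1 and NF-Y, which act at mitotic promoters, 3 were higher and 0 lower, led by *Foxm1* (log2FC 1.72, adjusted p = 0.00826). Of the 7 genes of the kinase switch 2 were higher and 1 lower, near the 19.7% and 17.0% of all tested genes. *Cks1b*, a small CDK-binding subunit, rose by 2.14 on the log2 scale (adjusted p = 0.00560), and *Wee1*, the kinase that holds CDK1 inactive, fell by 1.01 (adjusted p = 0.0311).

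The lists around cyclin destruction had shares of calls near those of all tested genes. They hold ubiquitin ligases together with regulators and deubiquitinases, so the counts give no direction for cyclin destruction. For the anaphase-promoting complex (APC/C) and its regulators, which end the life of cyclins A and B, 4 of 19 were higher and 2 lower (5 and 2 without wild-type mouse 1). *Ube2c*, its ubiquitin-conjugating enzyme, had the largest rise (log2FC 2.30, adjusted p = 0.000359) and *Anapc2*, a core subunit, the largest fall (log2FC -0.45, adjusted p = 0.00779). For SCF and other enzymes that act on cyclins D and E, 2 of 11 were higher and 2 lower, with *Fbxo31* (log2FC 1.32, adjusted p = 0.0112) and *Usp2*, a deubiquitinase of cyclin D1 (log2FC -1.13, adjusted p = 0.000571), at the ends. The list of genes upstream of *Ccnd1* held Wnt and AP-1 genes and the deleted *Smad4*. Of its 7 tested genes 2 were higher and 3 lower, *Smad4* among them. *Myc* rose most (log2FC 3.53, adjusted p = 0.00234), and *Smad4* itself fell most (log2FC -2.22, adjusted p = 0.000145). All adjusted p values of these lists are from edgeR's quasi-likelihood test.

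Most markers of the phases served by the cyclins were higher. Of 12 S phase markers 9 were higher and 0 lower, led by *Mcm3* of the replicative helicase (log2FC 2.88, adjusted p = 0.00833), and of 12 G2/M markers 11 were higher and 0 lower, led by *Aurkb*, a mitotic kinase (log2FC 2.49, adjusted p = 0.0250). Without wild-type mouse 1, 10 S phase and 12 G2/M markers were higher. The summed level of the S phase list was 92.9 to 106 CPM in wild-type and 213 to 228 CPM in double mutant mice, and that of the G2/M list 21.7 to 67.7 and 136 to 184 CPM. Of 8 crypt stem cell markers, 3 were higher and 0 lower (5 higher without wild-type mouse 1), and their sum was 81.4 to 191 CPM in wild-type and 300.45 to 383 CPM in double mutant mice. None of the 8 was at 3 counts or fewer in all 6 mice. T cell and intraepithelial lymphocyte markers, of cells that can divide and use D-type cyclins, summed to 96.0 to 198 CPM in wild-type and 85.6 to 126 CPM in double mutant mice, with 2 of 9 lower and 0 higher (8 lower without wild-type mouse 1). B and plasma cell markers summed to at most 2.18 CPM in any mouse. The part of crypt cells or lymphocytes in the cyclin results was not tested.

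**Figure D4:**
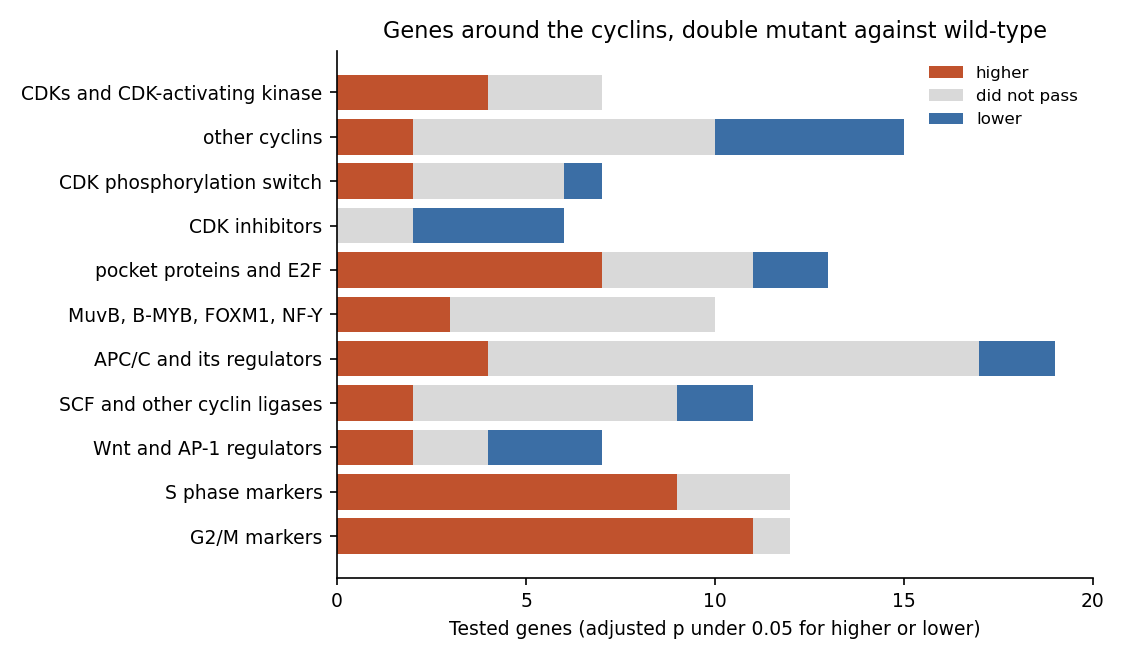
Number of tested genes in each of 11 lists around the cyclins that were higher, lower or did not pass in double mutant against wild-type villi (adjusted p under 0.05, edgeR's quasi-likelihood test). The S phase and G2/M lists hold 9 and 11 higher genes of 12 each and no lower one, and the CDK inhibitors hold 4 lower genes of 6 and no higher one.

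Other genes followed the same pattern over the 6 mice most closely when measured by the root mean square difference of log2 CPM, each gene centred on its own mean. For *Ccna2* these were *Ly6d* (0.137), *Naf1* (0.170) and *Ly6e* (0.176), for *Ccnb1* they were *Psat1* (0.123), *Cd276* (0.135) and *Chaf1b* (0.157), for *Ccnd1* *Aen* (0.0920), *Muc1* (0.104) and *Ube2c* (0.122), and for *Ccne1* *Zwilch* (0.106), *Gm7457* (0.110) and *9430008C03Rik* (0.112). *Ube2c* is the only one of these 12 that also stands in the lists above. *Ly6d* and *Muc1* stayed under 1 CPM in every mouse, where the prior count of 2 used for log2 CPM brings values close together.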

How the data were processed

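The files hold raw read counts per gene, 1 column per replicate, as deposited by the authors, without normalization. Each replicate was treated as 1 mouse. The authors sequenced poly(A)-enriched libraries as 150 bp paired-end reads, aligned them to mm9 with HISAT2 v2.0.5 and counted them with featureCounts v1.5.0-p3. The strand setting and the rule for reads of several genes are not given in the sources used here. Symbols, positions and exon lengths came from the GENCODE annotation of mm9, which held 20032 of 20073 Ensembl identifiers. Another 336 features are numbered transcripts. Genes kept by filterByExpr (13346) were scaled by TMM and tested with glmQLFit (robust) and glmQLFTest in edgeR 4.0.16 under R 4.3.3, and p-values were adjusted (Benjamini-Hochberg) across these genes and called at 0.05. The test was first tested on simulated data. The SE of a fold change was obtained as its absolute log2 value over √F, and intervals are at 95%. Levels per kilobase divide CPM by the union of annotated exons. Shares and ratios were compared by exact permutation tests over the 6 mice. DESeq2 1.42.0 and limma 3.58.1 served as alternatives, beside other scalings, no filter, a replicate block, sex as a covariate, females only and each mouse left out. The genotype by sex interaction was chosen after seeing the data. The floor chosen for low levels, 3 counts, was 0.125 to 0.163 CPM on the TMM scale and covers counting error only. The cyclins and the gene lists were chosen with earlier results of these data known. Named genes are the 8 cyclins, *Cdk1*, *Cdk2*, *Cdk4*, *Cdk6*, the largest called rise and fall of each list, the 3 genes closest in pattern to *Ccna2*, *Ccnb1*, *Ccnd1* and *Ccne1*, and 4 genes with exons on the opposite strand, named after their values were seen.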

Additional observations from a re-analysis of the deposited data

Results flagged for a closer look

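For *Ccnd2* a genotype by sex term, added after seeing the data, was 2.38 on the log2 scale, with the male difference the larger. It passed edgeR's threshold, as it did for 353 of 13346 genes (2.64%), for 7 of 8 goblet, 3 of 7 Paneth and 3 of 8 crypt stem cell markers, for 4 of 12 G2/M and 2 of 12 S phase markers, for 2 of 7 genes upstream of *Ccnd1*, 2 of 9 T cell and 1 of 10 enterocyte markers, and for no gene of the other lists. The wild-type male had 5.29 CPM and the wild-type females 25.9 and 25.0 CPM, whereas the double mutant male had 117 CPM and the females 110 and 106 CPM. Among the other 7 cyclins the term was largest for *Ccna2*, at 1.80, and did not pass. Each group holds 1 male, so the term restates the low value of wild-type mouse 1 against a spread taken from the females, and males and females were not compared by it.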

How the results depend on the processing

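Of the 8 cyclins, 5 (*Ccnd1*, *Ccne1*, *Ccne2*, *Ccna2* and *Ccnb1*) passed in all 14 alternative fits, and *Ccnd3* in none. *Ccnd2* lost its call without a filter on low counts (log2 fold change 2.58) and when any of the 3 double mutants was omitted, and over all 6 omissions it ran from 2.12 to 2.88. *Ccnb2* lost its call without wild-type mouse 2, with a range over the 6 of 1.63 to 2.65. The number of cyclins that passed stayed at 6 or 7. The difference of the *Ccnd1* share of the D-type sum was 2.87 percentage points with raw counts in place of counts per exon length, against 6.76. With a mouse left out, the difference in the log2 ratio of *Ccnb1* to *Cdk1* ran from -0.40 to 0.25 and thus changed sign, and that of the *Ccnb1* share of the B-type sum from 3.14 to 7.67 percentage points. Labels number the mice 1 to 3 in both groups, and mouse 1 is the male in each. The deviations of same-numbered mice from their group means correlated at 0.0224, -0.109 and 0.0123. With 3 mice per group these values cannot settle whether the numbers pair the mice, and the main fit did not pair them. With the replicate block, 7 cyclins and 3834 of all genes passed, against 7 and 4905, and the log2 fold change of *Ccnd2* was 2.81 (adjusted p = 0.0482).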
